A study of Mus musculus with 7 samples.

Results

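Insulin and the insulin-like growth factors act on receptor tyrosine kinases at the cell surface. The receptors phosphorylate docking proteins, the insulin receptor substrates, which recruit PI3K and lead to AKT, while adaptors of the Grb7 family and the ubiquitin ligase Cbl restrain or end the signal. In the heart this pathway takes part in glucose uptake, protein synthesis and physiological growth.

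The gene group described here holds the receptors Insr, Igf1r and Igf2r, the ligand Igf1, the substrates Irs1 and Irs2, and the adaptors Grb10, Grb14 and Cbl. These 9 genes were taken by symbol from the 53460 genes of the deposited table. No cutoff on their values was used, but they were chosen with earlier results of these data known. Their transcripts were measured by RNA sequencing in hearts of C57BL/6 mice (C57BL/6Ncr in the treatment notes and C57BL/6NCrSlc in the methods of the study). All mice underwent transverse aortic constriction (TAC), which loads the left ventricle by narrowing the aorta. According to the sample labels, TAC was performed at 12 weeks of age and hearts were sampled at 14 weeks. The methods of the study place the operation at an earlier age. The TAC + EMPA group (n = 4) was given empagliflozin (EMPA), which blocks the glucose transporter SGLT2, in its chow for 5 days from 2 weeks after TAC. The TAC group (n = 3) had the same operation without the drug, so both groups carried the pressure overload and no sham heart was analysed here. The labels do not say whether each library came from a separate animal, but the methods of the study describe all its samples as biologically different. The comparison asks whether EMPA changed transcripts of the receptors and adaptors that stand above PI3K in the failing heart.

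Levels are given as FPKM, fragment numbers scaled to transcript length and to the size of the library, so levels of different genes can be set side by side. Differences are on the scale of log2(FPKM + 1), where low levels give smaller fold changes than FPKM itself. Each was tested with limma over the 12391 genes whose mean was 1 FPKM or more, and adjusted p-values are those of the Benjamini-Hochberg method over these genes. Of the 9 genes, 8 were above this minimum, and Irs1, with a mean of 0.792, was not. No gene passed an adjusted p of 0.05 in limma in either direction (0% of the genes tested), which includes all 8. Without adjustment, 2349 genes were higher and 1827 lower at a p under 0.05.

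Several features of the libraries touch these values. For 9532 genes (76.9% of those tested), and for 6 of the 9 described here, TAC replicate 3 lay closer to the mean of the treated hearts than to that of the other TAC hearts. The libraries differed in depth by up to 2.27 times, as read from the steps of low FPKM values. All 8 endothelial markers had lower values after EMPA, and their summed FPKM was 1304 to 2781 in the TAC libraries, lowest in replicate 3, and 1030 to 1254 in the TAC + EMPA libraries. Cardiomyocyte markers were abundant in every library, although Myh6, a contractile protein of the cardiomyocyte, is listed at 0 in TAC + EMPA replicate 1, an estimate that cannot be read as absence. Of these 8 markers, 5 had higher and 3 lower values after EMPA. Among the higher, Ryr2 was at 25.4, 23.7 and 82.2 FPKM in TAC replicates 1 to 3 and at 102 to 117 in the TAC + EMPA libraries. Among the lower, Tnni3 was at 9380 to 12857 in the TAC libraries, lowest in replicate 3, and at 9187 to 9532 in the TAC + EMPA libraries. Hepatocyte markers summed to 42.6 in TAC + EMPA replicate 4 and to at most 6.01 in the other libraries. Skeletal muscle markers summed to 4576 to 5209 in the TAC libraries and 4438 to 6419 in the TAC + EMPA libraries. Nearly all of each sum came from Ckm and Acta1, so it says little about the other markers. The sum was lowest in TAC + EMPA replicate 4, where Tnnt3 was at 69.2 and Myh4 at 27.8, against at most 2.80 and 0.346 elsewhere. Mural cell markers summed to 204 to 307 FPKM in the TAC libraries and 186 to 286 in the TAC + EMPA libraries. In whole tissue, fewer cells of a type and less RNA per cell cannot be told apart.

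By mean level, Grb14 was far above the others at 98.0 FPKM, followed by Grb10 at 22.0, Igf2r at 17.9 and Insr at 16.3. Igf1 (4.02), Irs2 (3.23), Cbl (2.82) and Igf1r (2.40) formed a lower tier, and Irs1 was last. Grb14 was above Grb10, Insr above Igf1, and Igf1r above Irs1 in all 7 libraries with no overlap of their ranges. The neighbours within a tier overlapped. Irs2 was above Cbl in 3 of 7 libraries, although its mean was higher. Its rank depended on the group, since in the TAC group Irs2 (1.85) was below Igf1r (2.18) and Cbl (2.99), and in the TAC + EMPA group its mean of 4.26 was above that of Igf1.

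**Figure D1:**
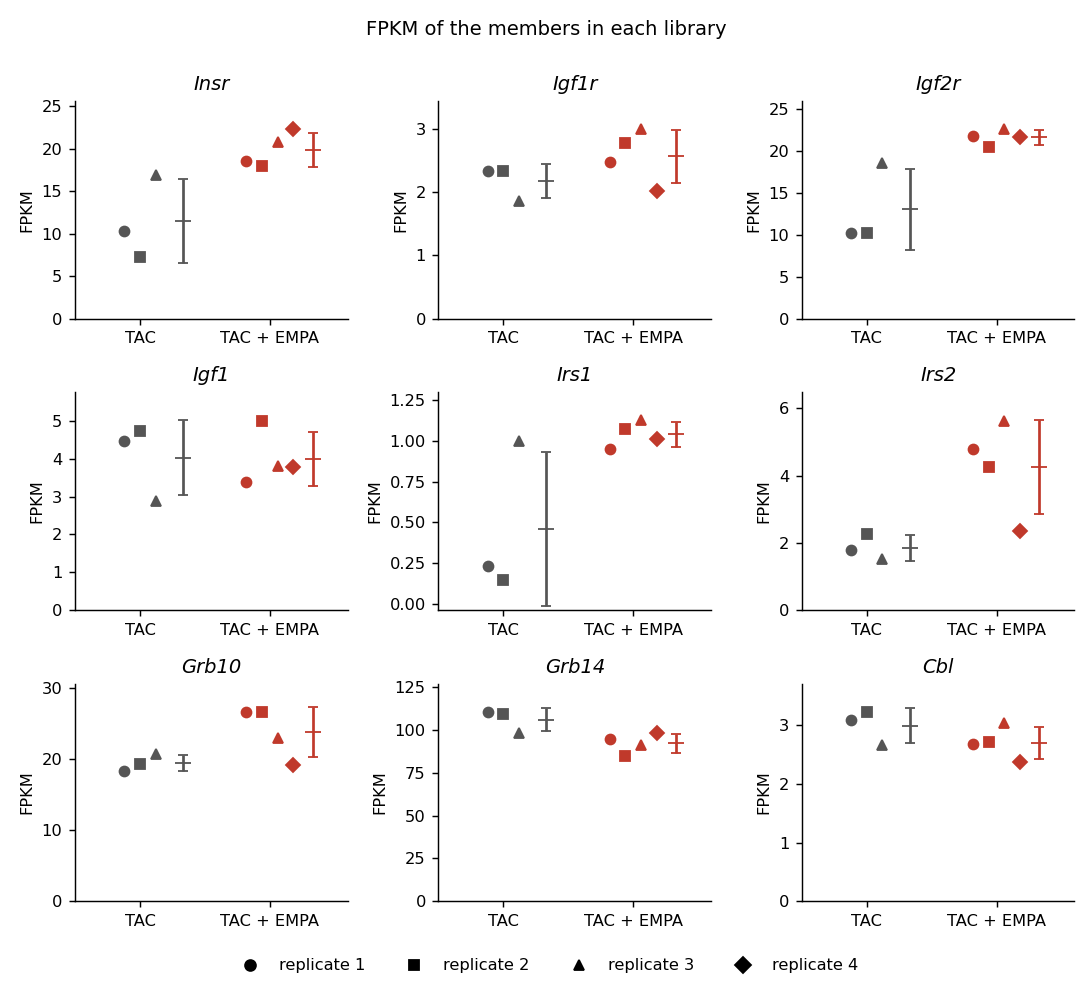
FPKM of the 9 genes in each library, with a symbol for each replicate number and the mean ± SD of the group beside the points (TAC n = 3, TAC + EMPA n = 4). Insr, Igf2r and Irs1 show TAC replicate 3 close to the TAC + EMPA libraries, whereas Irs2 was lowest in TAC replicate 3, at 1.51.

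Of the receptors, Insr and Igf2r had higher values with EMPA, whereas Igf1r overlapped between the groups. Insr, the insulin receptor, was at 10.3, 7.27 and 16.9 FPKM in TAC replicates 1 to 3. In TAC + EMPA replicates 1 to 4 it was at 18.5, 18.0, 20.8 and 22.3. The groups did not overlap, but TAC replicate 3 lay only just below them. Treated hearts had a mean of 19.9 ± 2.00 (SD, n = 4) and TAC hearts one of 11.5 ± 4.95 (SD, n = 3). This gave a difference of 0.81 on the log2 scale (standard error 0.24, limma adjusted p = 0.115). The TAC + EMPA mean was 1.93 and 2.73 times the level of TAC replicates 1 and 2, and 1.17 times that of TAC replicate 3. Without TAC replicate 3 the log2 fold change was 1.11, with an adjusted p of 0.00137 from limma, where 29.7% of all genes tested were called higher and 23.7% lower. Insr lies on chromosome 8 of GRCm38 from 3122061 to 3279617 (ENSMUSG00000005534).

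Igf2r, the cation-independent mannose 6-phosphate receptor, carries lysosomal enzymes and clears IGF2, and has no kinase of its own. It was at 10.3, 10.3 and 18.6 FPKM in the TAC libraries. The TAC + EMPA libraries were close together at 21.7, 20.5, 22.6 and 21.6. Igf2r thus repeated the order of Insr, with TAC replicates 1 and 2 low and TAC replicate 3 just under the treated hearts. Its log2 fold change was 0.74 (standard error 0.20, limma adjusted p = 0.115), and it was 1.01 without TAC replicate 3 (adjusted p = 0.000180). Against TAC replicate 3 alone, the TAC + EMPA mean was 1.16 times as high. Igf2r lies on chromosome 17 from 12682406 to 12769664.

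Airn, an imprinted antisense RNA that starts within Igf2r and silences the paternal allele of Igf2r in most mouse tissues, was looked at after its values had been seen. Airn was at 6.14, 6.21 and 6.43 FPKM in the TAC libraries and at 5.10, 3.59, 4.53 and 5.40 in the TAC + EMPA libraries. All TAC + EMPA libraries were below all TAC libraries, replicate 3 included. The log2 fold change was -0.37 (standard error 0.13, adjusted p = 0.117 from limma). Annotated exons of Airn and Igf2r share no base.

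Igf1r, the kinase receptor of IGF1, was at 2.34, 2.34 and 1.87 FPKM in the TAC libraries and at 2.47, 2.78, 3.0 and 2.02 in the TAC + EMPA libraries. The groups overlapped, since TAC + EMPA replicate 4 lay below TAC replicates 1 and 2. Its log2 fold change was 0.16 (standard error 0.13, adjusted p = 0.382 from limma), and it was 0.09 without TAC replicate 3 and -0.05 after correction of the libraries for transcript length. Igf1r has the longest annotated transcript of the group, with 11409 bases. It lies on chromosome 7 from 67952827 to 68233668.

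Insr and Igf1r are close relatives whose products can pair as hybrid receptors, so their ratio within a library was also examined. Insr exceeded Igf1r 4.4, 3.11 and 9.07 times in the TAC libraries and 7.48, 6.47, 6.92 and 11.0 times in the TAC + EMPA libraries. The ratio was higher in TAC replicate 3 than in TAC + EMPA replicates 1 to 3. The difference in mean log2 ratio was 0.64 (exact permutation p = 0.20, two-sided, and 0.20 when adjusted over the 2 ratios tested). The SD of the log2 ratio was 0.79 in the TAC libraries and 0.34 in the TAC + EMPA libraries. The difference in means thus lay between these 2 values. The difference was 0.30 without TAC replicate 2 (exact permutation p = 0.533) and 1.07 without TAC replicate 3 (exact permutation p = 0.0667).

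The ligand Igf1, which in the heart comes largely from cells other than cardiomyocytes, had nearly equal means, 4.0 ± 0.705 (SD, n = 4) with EMPA and 4.03 ± 0.996 (SD, n = 3) without. The TAC libraries were at 4.48, 4.73 and 2.89 FPKM, and the TAC + EMPA libraries at 3.38, 5.02, 3.83 and 3.78. Its lowest level was in TAC replicate 3 and its highest in TAC + EMPA replicate 2. The log2 fold change was 0.00 with a standard error of 0.17 (adjusted p = 0.996 from limma), and its sign turned under 7 of 16 alternatives. Fibroblast markers summed to 630 to 715 FPKM in the TAC libraries and 509 to 671 in the TAC + EMPA libraries, and macrophage markers to 223 to 327 and 220 to 254. Of the 8 macrophage markers, 3 had higher and 5 lower values. For 2 of them, Adgre1 and Cd163, all treated libraries lay above all TAC libraries (11.5% of all genes), unlike the sum. The part of fibroblasts and macrophages in the level of Igf1 was not tested. Igf1 lies on chromosome 10 from 87858265 to 87937042.

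The substrates Irs1 and Irs2 both had higher means in the TAC + EMPA group, but they differed in where TAC replicate 3 lay. Irs1 was at 0.233 and 0.143 FPKM in TAC replicates 1 and 2, at 1.0 in TAC replicate 3, and at 0.951, 1.07, 1.13 and 1.01 in the TAC + EMPA libraries. TAC replicate 3 was inside the range of the treated hearts, so the groups overlapped. With no filter on low values, its log2 fold change was 0.53 (standard error 0.20, adjusted p = 0.236 from limma). At its single annotated transcript of 9144 bases, these levels correspond to about 94, 25 and 203 fragments in the TAC libraries and 215 to 385 in the TAC + EMPA libraries. Irs1 lies on chromosome 1 from 82233101 to 82291416.

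Irs1 shares 2822 exon bases with Gm9747, a gene annotated on the opposite strand. Gm9747 was at 4.68, 4.80 and 6.89 FPKM in the TAC libraries and at 5.81 to 6.82 in the TAC + EMPA libraries, so it too was higher in TAC replicate 3 than in TAC replicates 1 and 2. The library kit keeps strand, but whether the counting used it is not given in the sources used here. Reads of the pair may therefore have been divided between them, and the level of Irs1 is uncertain.

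Irs2, a main substrate of the insulin receptor in metabolic tissues, was at 1.78, 2.25 and 1.51 FPKM in the TAC libraries. In the TAC + EMPA libraries it was at 4.81, 4.25, 5.64 and 2.35. All treated libraries were above all TAC libraries, although replicate 4 was barely above TAC replicate 2. In contrast to Insr, Igf2r and Irs1, Irs2 was lowest of all in TAC replicate 3, and the TAC + EMPA mean was 2.39, 1.89 and 2.83 times the levels of TAC replicates 1 to 3. The log2 fold change was 0.85 (standard error 0.24, limma adjusted p = 0.115). It was 0.76 without TAC replicate 3 (adjusted p = 0.0522), 1.05 without TAC + EMPA replicate 4 (adjusted p = 0.183), and 0.96 without both (adjusted p = 0.00304, where 30.1% of all genes tested were called higher and 23.9% lower). TAC + EMPA replicate 4, the lowest treated library for Irs2, is the library with the hepatocyte markers, and their part in this value was not tested. Irs2 lies on chromosome 8 from 10984681 to 11008458.

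**Figure D2:**
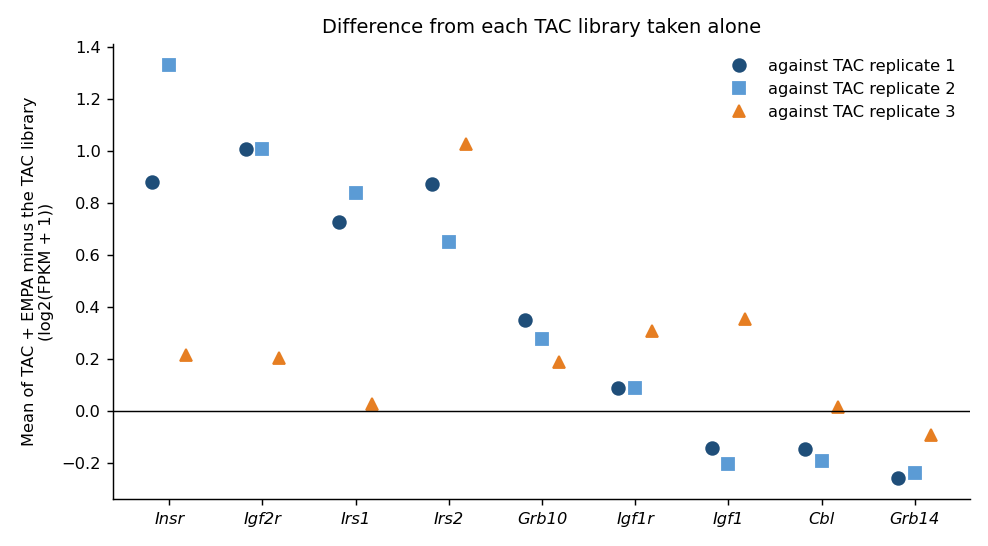
Mean of the 4 TAC + EMPA libraries minus each TAC library taken alone, in log2(FPKM + 1), for the 9 genes. The differences of Insr, Igf2r and Irs1 were 0.73 to 1.33 against TAC replicates 1 and 2 and 0.03 to 0.21 against TAC replicate 3, whereas that of Irs2 was largest against TAC replicate 3, at 1.03.

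Because Irs1 was so low in TAC replicates 1 and 2, the balance of the substrates varied most among the TAC hearts. Irs2 exceeded Irs1 7.66, 15.8 and 1.5 times in the TAC libraries and 5.06, 3.96, 4.99 and 2.32 times in the TAC + EMPA libraries. The TAC range held all treated hearts. This ratio was not tested, since Irs1 was under the minimum level.

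RefSeq start windows (GRCm38.p6, 250 bases before to 50 after the start) were found for 8 of the 9 genes, all except Insr, with 2 windows for Grb10. The letters CACGTG, the core of the E box bound by basic helix-loop-helix factors, occurred in the windows of Igf2r, Irs1 and Irs2 and in no other of the 8 genes. Of all 32851 windows of this length, 7.15% hold CACGTG, and 0.594% hold it at least 2 times, as Igf2r does. The motif was chosen after the sequences had been seen. The windows of these 3 genes are shown because they hold the motif. Grb10 and Igf1r also had higher means with EMPA, and their windows do not hold it. CACGTG is in capitals, and it reads the same on both strands. It starts at -48 and -7 in Igf2r, at -115 in Irs1 and at -44 in Irs2, counted from the first transcribed base as 1, with no position 0.
Igf2r, minus strand of chr17:12769657-12769956: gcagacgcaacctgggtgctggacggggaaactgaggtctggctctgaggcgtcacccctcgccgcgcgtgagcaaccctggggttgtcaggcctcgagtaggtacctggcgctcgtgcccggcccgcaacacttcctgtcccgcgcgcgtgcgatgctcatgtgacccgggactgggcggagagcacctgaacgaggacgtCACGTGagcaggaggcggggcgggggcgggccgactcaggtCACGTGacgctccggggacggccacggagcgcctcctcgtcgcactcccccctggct
Irs1, minus strand of chr1:82291390-82291689: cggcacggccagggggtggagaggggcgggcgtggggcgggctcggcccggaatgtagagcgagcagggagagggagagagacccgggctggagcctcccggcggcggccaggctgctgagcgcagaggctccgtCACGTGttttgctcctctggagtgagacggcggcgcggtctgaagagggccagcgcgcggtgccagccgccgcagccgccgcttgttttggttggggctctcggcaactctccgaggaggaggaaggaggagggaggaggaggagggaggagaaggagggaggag
Irs2, minus strand of chr8:11008880-11009179: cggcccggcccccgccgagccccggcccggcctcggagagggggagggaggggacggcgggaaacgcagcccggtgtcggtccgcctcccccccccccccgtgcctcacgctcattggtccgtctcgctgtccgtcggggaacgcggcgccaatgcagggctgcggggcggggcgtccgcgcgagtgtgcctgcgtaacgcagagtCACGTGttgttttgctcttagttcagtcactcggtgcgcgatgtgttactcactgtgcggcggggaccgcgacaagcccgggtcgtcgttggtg
The forkhead core TGTTTAC, the site class of FoxO factors, was in none of the 9 windows and is in 3.65% of all windows, searched on both strands. The GC box GGGCGG, searched in the same way, was in 7 of the 9 and is in 35.7% of all. Such matches describe the letters of the window and not binding, and the absence of a motif says only that these letters are not there.

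The adaptors differed in direction. Grb10, an imprinted adaptor that binds the activated insulin and IGF1 receptors and restrains them, was at 18.4, 19.4 and 20.7 FPKM in the TAC libraries and at 26.7, 26.6, 23.0 and 19.3 in the TAC + EMPA libraries. TAC + EMPA replicate 4 was within the TAC range and the other 3 treated libraries were above it. Its log2 fold change was 0.27 (standard error 0.13, adjusted p = 0.186 from limma), and 0.41 without TAC replicate 3 and TAC + EMPA replicate 4 (adjusted p = 0.0128, in the fit where 30.1% of all genes tested were called higher). With the length correction it was 0.13 (adjusted p = 0.479). Grb10 lies on chromosome 11 from 11930508 to 12038683.

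Grb14, a related adaptor that inhibits the catalytic activity of the insulin receptor, was the most abundant gene of the group. It was at 110, 109 and 98.1 FPKM in the TAC libraries and at 94.4, 84.9, 91.2 and 97.8 in the TAC + EMPA libraries. All treated libraries were below all TAC libraries, by a margin of less than 1 FPKM between TAC + EMPA replicate 4 and TAC replicate 3. Its change was -0.20 on the log2 scale (standard error 0.10, adjusted p = 0.188 from limma), and -0.25 without TAC replicate 3 (adjusted p = 0.0262). Grb14 lies on chromosome 2 from 64912476 to 65024987.

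Within a library, Grb14 exceeded Grb10 5.99, 5.62 and 4.74 times in the TAC hearts and 3.54, 3.19, 3.96 and 5.08 times in the TAC + EMPA hearts. Treated replicates 1 to 3 were below all TAC hearts and replicate 4 was among them. The difference in mean log2 ratio was -0.48 (exact permutation p = 0.0857, two-sided, and 0.171 when adjusted over the 2 ratios tested). The smallest p that the 35 possible assignments allow is 0.0286.

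Cbl, a ubiquitin ligase that acts on activated receptors, was at 3.09, 3.22 and 2.66 FPKM in the TAC libraries and at 2.68, 2.72, 3.03 and 2.36 in the TAC + EMPA libraries, and the groups overlapped. Its log2 fold change was -0.11 (standard error 0.10, adjusted p = 0.461 from limma). It was -0.32 with the length correction (adjusted p = 0.137), -0.17 without TAC replicate 3, -0.07 without TAC replicate 2 and -0.06 without TAC + EMPA replicate 4. Cbl lies on chromosome 9 from 44142976 to 44234049.

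**Figure D3:**
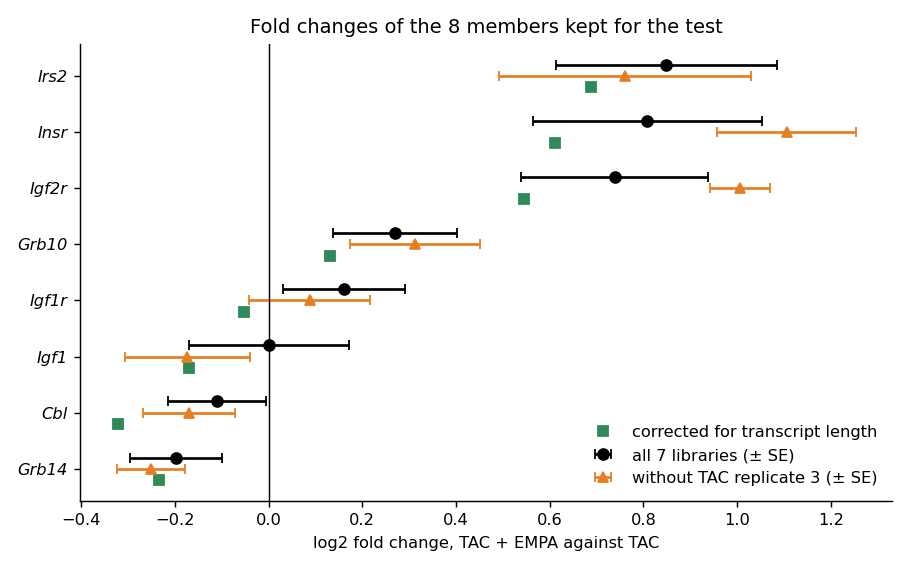
Log2 fold changes of the 8 genes kept for the test, from all 7 libraries, without TAC replicate 3 (both ± SE), and after correction for transcript length. Insr and Igf2r moved from 0.81 and 0.74 to 1.11 and 1.01 without TAC replicate 3, Irs2 stayed between 0.69 and 0.85, and Igf1r moved to -0.05 with the length correction.

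Counted over the 8 genes, 6 had higher and 2 lower mean log2 values in the TAC + EMPA group, and their median log2 fold change was 0.22, against 0.03 over all genes tested. At an unadjusted p under 0.05 in limma, 3 of the 8 were higher (Insr, Igf2r and Irs2), as were 19% of all genes tested, and none was lower, against 14.7% (33.7% in either direction). The groups did not overlap for the same 3 genes in the higher direction (11.5% of all genes) and for Grb14 in the lower direction (10.7%), which makes 4 of 8 in either direction against 22.3%. With the length correction, the log2 fold changes were 0.61 for Insr, 0.55 for Igf2r and 0.69 for Irs2, and the median of the 8 was 0.04.

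Irs2 and Insr followed different profiles across the libraries. The likeness of genes was measured as the root mean square difference between mean-centred log2(FPKM + 1) values over the 7 libraries. Closest to Irs2, whose own spread was 0.515, were Abra, an actin-binding protein of striated muscle, at 0.130, Ppp1r3c, a glycogen-targeting subunit of protein phosphatase 1, at 0.147, and Trp53inp1, a p53-induced stress protein, at 0.167. As their choice by likeness to Irs2 implies, these genes were low in TAC + EMPA replicate 4. There Abra was at 20.1 FPKM and Ppp1r3c at 55.9, against 39.0 to 43.4 and 83.3 to 96.2 in the other treated libraries. Closest to Insr were Cnot1, a scaffold of the CCR4-NOT deadenylase, at 0.0547, Kif16b, an endosomal kinesin, at 0.0605, and Dglucy, a mitochondrial D-glutamate cyclase, at 0.0692. Igf2r was the closest to Insr of the other kept genes of the group at 0.149, and Irs2 was at 0.524. Among all genes kept, however, Igf2r was only at rank 160. Closest to Igf1 were Tfeb, a regulator of lysosomal genes, at 0.0691, Taf15 at 0.0805 and Tmem39b at 0.0873. These likenesses rest on 7 libraries that share the drug contrast and are given as a description.

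**Figure D4:**
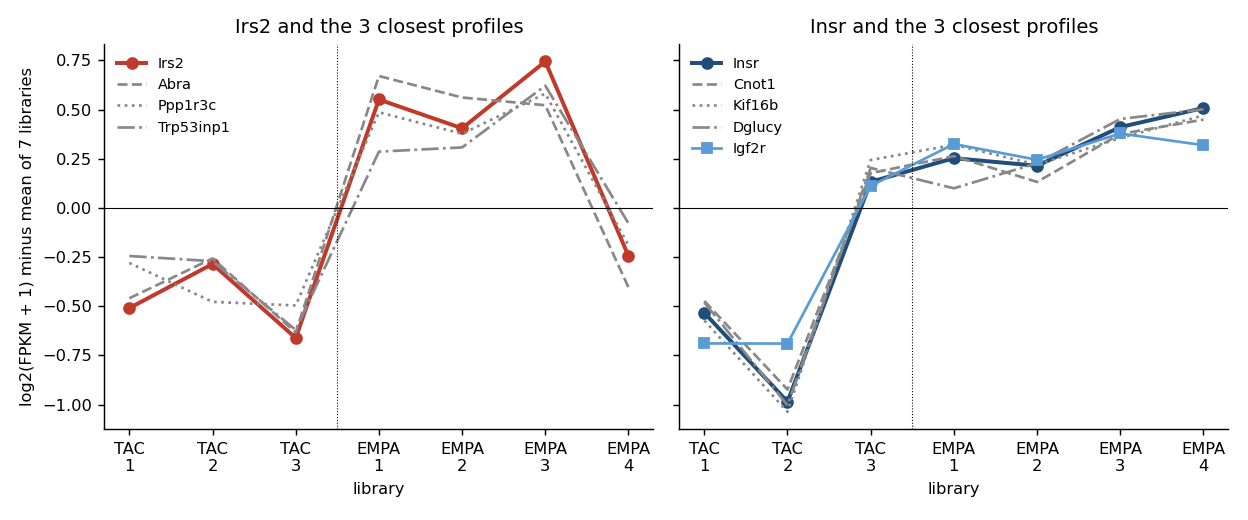
Mean-centred log2(FPKM + 1) of Irs2 (left) and Insr (right) with the 3 genes of most similar profile, and of Igf2r beside Insr, in the 7 libraries. The lines only join the points of a gene, and EMPA stands for TAC + EMPA. Irs2 separates from Insr in TAC replicate 3 and in TAC + EMPA replicate 4.

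Around the receptors, other genes of the pathway were counted by role. Of 16 IGF ligands and binding proteins, 10 were kept and 7 of the 10 had lower values, with a median log2 fold change of -0.29. At an unadjusted p of 0.05, 4 of the 10 passed downwards (14.7% of all genes tested) and 1 upwards (19% of all), and none passed after adjustment. With no filter on low values the median was -0.08. Stc2, which inhibits the proteases that free IGF from its binding proteins, was at 4.47, 4.62 and 4.46 FPKM in the TAC libraries and at 2.82, 2.85, 3.38 and 3.84 in the TAC + EMPA libraries. The groups did not overlap, and TAC replicate 3 was with the other TAC hearts (log2 fold change -0.39, standard error 0.11, limma adjusted p = 0.115). Igfbp3, a main IGF binding protein, was at 29.4, 29.2 and 14.2 in the TAC libraries and at 12.5, 12.4, 14.7 and 8.61 in the TAC + EMPA libraries, with TAC replicate 3 among the treated libraries. Igfbp5 was the only gene of this list that was higher at an unadjusted p under 0.05, at 12.5 to 14.0 in the TAC libraries and 13.6 to 20.1 in the TAC + EMPA libraries.

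Among other adaptors and docking proteins, 11 of 19 kept genes had higher and 8 lower values, and 4 were past an unadjusted p of 0.05 in each direction, against 19% of all genes upwards and 14.7% downwards. The median log2 fold change was 0.12, and it was -0.06 with the length correction and -0.01 with no filter. Ptpn11, the phosphatase SHP2 that binds phosphorylated substrates, had a log2 fold change of 0.84, and Dok4, a docking protein of the insulin receptor, one of -0.82.

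Of 21 kept negative regulators of the receptors and substrates, 15 had higher values, the unadjusted test passed 10 upwards (19% of all genes) and 1 downwards (14.7% of all), and the median log2 fold change was 0.25. Cblb, a relative of Cbl, was at 2.16, 2.15 and 2.00 FPKM in the TAC libraries and at 3.24, 3.48, 3.24 and 2.92 in the TAC + EMPA libraries. Cblb did not overlap between the groups and, like Irs2, was lowest in TAC replicate 3 (log2 fold change 0.44, standard error 0.09, limma adjusted p = 0.115). Cul7, part of a ubiquitin ligase that targets Irs1, had a log2 fold change of -0.57.

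For receptor traffic and processing, 16 of 20 kept genes had higher values, with 8 past the unadjusted test upwards (19% of all genes) and 1 downwards (14.7% of all). The median log2 fold change was 0.29, and 0.15 with the length correction. Furin, the protease that cleaves the proreceptors of insulin and IGF1, was at 16.5, 19.5 and 34.5 FPKM in the TAC libraries and at 44.5, 47.3, 54.5 and 35.9 in the TAC + EMPA libraries (log2 fold change 0.98, adjusted p = 0.115). Snx5, a sorting nexin that takes part in the retrieval of Igf2r from endosomes, was at 42.6 to 49.2 FPKM in the TAC libraries and 59.8 to 68.8 in the TAC + EMPA libraries. Cav1, a caveolar protein abundant in endothelium, was at 226 to 387 FPKM in the TAC libraries, lowest in replicate 3, and at 191 to 197 in the TAC + EMPA libraries.

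Of 27 kept genes of the PI3K-Akt steps after the substrates, 21 had higher values, with 11 past the unadjusted test upwards (19% of all genes) and 2 downwards (14.7% of all). The median log2 fold change was 0.28, and 0.17 with the length correction. Foxo3, a forkhead factor that AKT holds out of the nucleus, was at 12.1, 12.9 and 19.9 FPKM in the TAC libraries and 26.0 to 30.5 in the TAC + EMPA libraries. Pdpk1, the kinase that activates AKT, was at 2.85, 3.30 and 5.00 FPKM in the TAC libraries and 6.46 to 7.10 in the TAC + EMPA libraries. Both lay apart between the groups, with TAC replicate 3 nearest to the treated hearts. Tbc1d1, a Rab GTPase-activating protein that AKT phosphorylates, was at 4.69 to 5.85 FPKM in the TAC libraries and 3.55 to 4.36 in the TAC + EMPA libraries, with no overlap (log2 fold change -0.32, limma adjusted p = 0.117). Phlpp1, a phosphatase of AKT, was at 4.43 to 5.59 and 3.74 to 4.47, and overlapped (log2 fold change -0.29, limma adjusted p = 0.121). Against TAC replicate 3 alone, the medians were -0.00 for the ligands and binding proteins, 0.00 for the other adaptors, 0.06 for the negative regulators, 0.08 for traffic and 0.06 for PI3K-Akt. Pik3r1, the regulatory subunit of PI3K that docks on the substrates, is shown as a gene that the study reported beside Irs2. In limma, its log2 fold change was 1.13 (standard error 0.28, adjusted p = 0.115). The TAC + EMPA mean of Pik3r1 was 2.63 and 3.39 times the levels of TAC replicates 1 and 2. Against TAC replicate 3 it was 1.34 times as high, the order seen for Insr rather than for Irs2.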

How the data were processed

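RNA of 7 cardiac samples was sequenced as stranded polyadenylated libraries. Per the labels and methods, the authors mapped reads to GRCm38 (mm10) with TopHat2 2.0.13 and obtained gene-level FPKM, the unit of the deposited values, from Cuffdiff (Cufflinks 2.2.1), whose scaling between libraries is not given in the sources used here. The deposited table also holds the authors' fold changes, p-values and q-values, and further deposited tables hold their enriched terms. None of these was used.

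Fragment counts were not used. In single-exon genes of at least 1000 bases, small FPKM values step by the worth of 1 fragment (at least 99.1% of values within 0.1 of a whole number), which gave relative depths of 1 to 2.27. Fragment numbers of a gene are estimates from these steps and its longest transcript. Intervals for counting error are not given.

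Values were taken as log2(FPKM + 1), with genes kept at a mean FPKM of at least 1 (12391 of 53460), and the groups were compared two-sided by limma 3.58.1 (R 4.3.3, trended prior), adjusted by the Benjamini-Hochberg method, with 0.05 as the threshold. The limma p-values weigh the group difference against the spread between libraries within the groups, moderated by a trend over all genes. Ratios were tested with exact permutation over all 35 splits. Both tests were tried on simulated data with known answers. Positions and transcript lengths come from GENCODE M21, which holds 53270 of the gene IDs, and start windows from RefSeq.

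The members and lists were chosen with earlier results of these data known, so no set was tested and no p-value was adjusted over a list. All members are named. Of the pathway lists, genes were eligible by the 2 smallest p-values in each direction, and for Irs2, Insr and Igf1 the 3 closest profiles were named. Of the genes this rule gives, 1 is not reported here. Pik3r1 was named outside the rule, as a gene of the study text shown beside Irs2. Airn, Gm9747 and the promoter motifs were chosen after values or sequences had been seen. Alternatives covered the pseudocount (0.1), the filter (none, or a mean of at least 5), quantile and median scaling, transcript length (loess, span 0.5), library weights, a block for the replicate number, the variance prior, and libraries left out. Python 3.11.15, pandas 2.3.3 and matplotlib 3.10.9 were used.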

Additional observations from a re-analysis of the deposited data

Results flagged for a closer look

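In the TAC + EMPA group, single libraries stood apart for 3 of 27 genes, ratios and gene lists examined, where chance sets apart about 5%. Measured as the distance to the next library divided by the spread of all 4, the separation was 0.894 for the mean log2 level of the IGF ligands and binding proteins, low in TAC + EMPA replicate 4. A value of 0.914 was found for the cardiomyocyte markers, low in TAC + EMPA replicate 1, where Myh6 is listed at 0, and one of 0.929 for the hepatocyte markers, high in TAC + EMPA replicate 4, where Alb was at 26.1 FPKM and Apoa1 at 8.81. None of the 9 genes of the receptor group stood apart in this way.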

How the results depend on the processing

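With limma, no gene was called in the 7 libraries at an adjusted p of 0.05. Leaving out single libraries gave 0 to 3681 genes called higher and 0 to 2932 lower. The upper ends came from leaving out TAC replicate 3, and no other library gave more than 4 calls in a direction. Of the 8 genes of the group, 0 to 2 were then called higher and 0 to 1 lower, all without TAC replicate 3 (Insr, Igf2r and Grb14). With library weights, 3310 genes were called higher and 2551 lower, with 3 of the 8 higher. Without TAC replicate 3 and TAC + EMPA replicate 4 together, 3721 were called higher and 2956 lower, with 4 of the 8 higher and 1 lower. With no filter on low values, 2 genes were called lower. The cause of these changes was not tested beyond the libraries left out.

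At an unadjusted p under 0.05, 1 of the 8 was lower with the length correction (Cbl) and 1 with no filter, with library weights and without both libraries (Grb14). With a library left out it was 0 to 1. The treated libraries all lay above the TAC libraries for 3 to 5 genes with a library left out and for 5 without both, and below for 1 to 2 and 2. The shares over all genes were not counted in these settings, and groups separate more easily with fewer libraries. These counts are therefore not read as a result about the group. The log2 fold change of Igf1r was -0.0521 with the length correction. That of Igf1 was -0.0394 with quantile normalization, -0.0411 with median centring, -0.17 with the length correction, -0.16 with library weights and without both libraries, and -0.17 to 0.11 with a library left out. The other 6 genes kept their direction under every alternative run. Of 132 values over the 8 genes and alternatives, 113 kept direction and side of the threshold.

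Same-numbered samples of the groups had deviations correlated at 0.104, 0.0838 and -0.0287 for numbers 1 to 3. TAC replicates 1 and 2 each correlated best with the treated library of their own number, and TAC replicate 3 with TAC + EMPA replicate 2 (0.0603). Both libraries numbered 1 were also the deepest, at relative depths of 2.26 and 2.27 against at most 1.33 in the others. The labels do not name the numbers as pairs, and the main fit used no block. With the replicate number as a block, 0 of the 8 were called, Irs2 had a log2 fold change of 1.05 (limma adjusted p = 0.194) and Insr one of 0.75. TAC + EMPA replicate 4 has no TAC library of its number, so these fold changes equal those without that library. Over the pairs numbered 1 to 3, the difference in log2 ratio was 0.48 for Insr to Igf1r (exact p = 0.50, groups swapped within pairs). With so few pairs this test cannot reach 0.05. With a library left out, the exact test of a ratio cannot reach 0.05. Depth limits Irs1, at about 25 fragments in TAC replicate 2.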
